A study of Mus musculus with 6 samples.

Results

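Expression of 9 genes of GABAergic interneurons was followed in the hippocampus of control and p300-ifKO mice. The genes were chosen by name: Gad1, Gad2, Slc32a1, Pvalb, Lhx6, Reln, Lamp5, Ndnf and Erbb4, which are 9 of the 55471 genes in the count table. All 9 carried reads in each of the 6 libraries and all 9 were tested. In the comparison of p300-ifKO with control mice, 0 of the 9 passed the threshold (DESeq2 Wald test, adjusted p under 0.05 over all genes tested), against 0.0061% of the 32773 genes tested. The edgeR quasi-likelihood test also passed 0 of the 9, against 0.0117%.

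The p300-ifKO mice carried floxed Ep300, the gene for the lysine acetyltransferase p300, and creERT2, a Cre recombinase that tamoxifen switches on, under the Camk2a promoter. Both groups were C57BL/6 mice that the labels put at 3 to 6 months of age, and both received 5 intragastric administrations of tamoxifen at 20 mg/ml in corn oil, also the controls. Each group had 3 libraries, which the study describes as single mice, taken about a month after tamoxifen. The protocol in the labels describes the controls as littermates without creERT2, whereas every control library carries the driver in its own description. Esr1, part of whose sequence is in creERT2, had 87.2 to 109 normalized counts in the control libraries and 2416 to 4217 in the p300-ifKO libraries. The methods of the study also name littermates without the driver as controls, and the Esr1 counts go with this.

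The Camk2a promoter drives recombination in excitatory forebrain neurons, so the model was not built to remove p300 from interneurons. Interneurons are a minority of hippocampal neurons that make the inhibitory transmitter GABA from glutamate, load it into vesicles and release it onto pyramidal cells, granule cells and each other. They fall into classes by origin and by the proteins they make. Cells from the medial ganglionic eminence keep Lhx6 and include the fast-spiking Pvalb cells. Reln, Lamp5 and Ndnf are markers of neurogliaform cells, a grouping that does not go by origin. Whole hippocampus was sequenced, so fewer cells of a type and less RNA per cell cannot be told apart.

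Libraries held between 23151568 and 28433823 counts. Values below are normalized counts, that is counts divided by the DESeq2 size factor of the library, and each log2 fold change is p300-ifKO against control. Ep300 itself was lower in 3 of 3 p300-ifKO libraries, at −0.97 on the log2 scale (SE 0.33, adjusted p 0.991 in DESeq2). Replicates 1, 2 and 3 were at 26.8%, 75.7% and 51.1% of the control mean, and Ep300 passed in DESeq2 once replicate 2 was left out (−1.36, adjusted p 0.000375) and with 1 surrogate variable (−0.48, adjusted p 0.00127). Without replicate 2, 2.89% of all genes passed. Ep300 has 14273 exonic bases, and with smooth offsets for length and GC content per library it was −0.83 (adjusted p 0.906 in DESeq2). With all 6 libraries and no covariate, the 2 genes that passed were Esr1 (4.96, SE 0.24) and Arsi (2.56, SE 0.27), both higher. The study ascribes both to the driver transgene. It states that Arsi, next to the Camk2a promoter, was carried on the transgene, and that only Esr1 exons used in creERT2 were raised. Over all genes the median log2 fold change was −0.046 and 54.7% were lower, and over the 13613 genes with a mean of at least 50 the median was −0.0043 with 50.6% lower. Libraries also differed by how their counts followed exonic length: over 17071 genes, Spearman's rho of a gene's deviation with its length was between 0.162 and 0.412 in the control libraries, −0.504 in p300-ifKO replicate 1, 0.417 in replicate 2 and −0.275 in replicate 3. These values stand beside every comparison below, and their part in it was not tested.

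The region around the start of transcription of the synthesis genes is shown because Gad1 and Gad2 define the cell type and Gad1 was the only one of the 9 genes whose groups did not overlap. RefSeq on GRCm38.p6 gave 12 such windows of 300 bases for 8 of the 9 genes. Capitals in Gad1 (chr2:70561879-70562178, plus strand) mark TATAAA read on the opposite strand, and capitals in Gad2 (chr2:22622077-22622376, plus strand) mark TGACG, the core of the cAMP response element, also on the opposite strand. Pvalb (chr15:78206351-78206650, minus strand) held no motif that was searched and is shown because it was the only member with a higher mean in p300-ifKO.
Gad1: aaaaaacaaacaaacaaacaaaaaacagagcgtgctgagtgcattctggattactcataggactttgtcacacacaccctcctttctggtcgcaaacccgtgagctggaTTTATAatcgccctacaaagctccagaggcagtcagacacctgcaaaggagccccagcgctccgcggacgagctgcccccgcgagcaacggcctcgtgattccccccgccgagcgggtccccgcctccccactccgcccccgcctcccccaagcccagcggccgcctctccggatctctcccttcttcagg
Gad2: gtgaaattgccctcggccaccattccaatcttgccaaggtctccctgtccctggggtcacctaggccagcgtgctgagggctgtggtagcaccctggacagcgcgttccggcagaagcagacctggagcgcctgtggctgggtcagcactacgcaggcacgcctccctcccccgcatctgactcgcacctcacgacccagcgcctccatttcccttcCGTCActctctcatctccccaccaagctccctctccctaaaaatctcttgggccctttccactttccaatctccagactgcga
Pvalb: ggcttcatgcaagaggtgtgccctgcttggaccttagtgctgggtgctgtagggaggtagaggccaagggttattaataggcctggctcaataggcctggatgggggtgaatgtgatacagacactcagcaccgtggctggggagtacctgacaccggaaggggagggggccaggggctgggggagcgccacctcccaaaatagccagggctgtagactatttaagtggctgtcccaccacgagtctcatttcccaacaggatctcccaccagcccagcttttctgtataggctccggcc

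The motifs were searched as letters on both strands. The full cAMP response element TGACGTCA, which CREB binds and through which p300 and CBP are known to be recruited, was in 0 of the 12 windows and in 1.79% of all 32851 windows of the same length. TGACG, whose letters are part of that element, was in 1 of the 12 and in 20.8% of all windows. TATAAA was in 2 of the 12, Gad1 and 1 of the 3 windows of Lhx6, and in 13.6% of all windows. TAATTA, a core that homeodomain factors bind, was in 0 of the 12 and in 5.29% of all windows. The GC content of the windows was between 48.3% in a window of Lamp5 and 80.7% in Reln, against a median of 52.7% over all windows.

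The machinery that makes and loads GABA was examined first. Gad1 (ENSMUSG00000070880, chromosome 2, 70553072 to 70602014 on GRCm38, as for all coordinates of genes here) encodes a glutamate decarboxylase, the enzyme that makes GABA, and was the most abundant of the 9 genes. Control libraries had 11496, 10261 and 10281 normalized counts and p300-ifKO libraries 9074, 10181 and 9739. The 3 p300-ifKO values were all below the 3 control values, but the lowest control and the highest p300-ifKO library were 80.4 counts apart, less than the SD of either group. Over all genes, groups did not overlap with p300-ifKO lower in 3.42%, and in 3.15% of those with a mean of at least 50. Group means were 10679 ± 707 for controls and 9665 ± 557 for p300-ifKO (SD, n = 3 each), which gave a log2 fold change of −0.14 (SE 0.11, 95% interval −0.37 to 0.08, adjusted p 0.991 in DESeq2 and 0.745 in edgeR). With smooth offsets for length and GC content per library the log2 fold change of Gad1 was −0.015, and leaving out control replicate 1 moved it to −0.087.

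Gad2 (ENSMUSG00000026787, chromosome 2, 22622205 to 22693874) encodes the other glutamate decarboxylase, which is enriched at nerve terminals. It had 4305, 3904 and 4508 normalized counts in the controls against 2858, 4136 and 3663 in the p300-ifKO mice. Replicates 1 and 3 of the p300-ifKO group lay below all controls, and replicate 2 lay within the control range. The log2 fold change was −0.25 (SE 0.17, 95% interval −0.58 to 0.07, adjusted p 0.991 in DESeq2). Leaving out p300-ifKO replicate 1 moved it to −0.12, and leaving out replicate 2 to −0.38 (DESeq2 adjusted p 0.0776), and it was −0.15 with length and GC offsets.

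Slc32a1 (ENSMUSG00000037771, chromosome 2, 158610767 to 158615748) encodes the vesicular GABA transporter. Its libraries had 1479, 1336 and 1246 normalized counts in controls and 1423, 1164 and 1323 in p300-ifKO. The groups overlapped, and the log2 fold change was −0.055 (SE 0.14, 95% interval −0.33 to 0.22, adjusted p 0.991 in DESeq2). Its direction changed without control replicate 1 (0.014) or p300-ifKO replicate 2 (0.023). Slc32a1 was farther from 0 with length and GC offsets, at −0.20 (DESeq2 unadjusted p 0.0373, adjusted p 0.954), the only one of the 9 under 0.05 unadjusted in that fit, where 2.45% of all genes were. Without p300-ifKO replicate 1 it was −0.12. Of its exonic bases, 24.9% overlap the antisense gene Gm14205, and reads from both strands cannot be told apart because no strand setting is stated.

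Within a library, the 3 genes were set against each other per kilobase of exonic length. The ratio of Gad1 to Gad2 was 2.05, 2.02 and 1.75 in controls and 2.44, 1.89 and 2.05 in p300-ifKO libraries. The ratio of Slc32a1 to Gad1 was 0.351, 0.356 and 0.331 in controls and 0.428, 0.312 and 0.371 in p300-ifKO. Both ratios overlapped between groups, and p300-ifKO replicate 1 had the highest value of each.

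Genes of cells from the medial ganglionic eminence came next. Pvalb (ENSMUSG00000005716, chromosome 15, 78191114 to 78206400) encodes parvalbumin, a calcium buffer of fast-spiking basket and axo-axonic cells. It had 820, 809 and 616 normalized counts in controls and 1433, 679 and 874 in p300-ifKO libraries. Replicates 1 and 3 of the p300-ifKO group lay above all controls and replicate 2 lay within the control range. Group means were 749 ± 115 for controls and 995 ± 391 for p300-ifKO (SD, n = 3 each), and the log2 difference was 0.41 (SE 0.27, 95% interval −0.12 to 0.94, adjusted p 0.991 in DESeq2 and 0.745 in edgeR). It rested on 1 library, as leaving out p300-ifKO replicate 1 moved it to 0.051 and leaving out replicate 2 to 0.63 (DESeq2 adjusted p 0.05005, just above the threshold). A model with 1 surrogate variable turned it to −0.057, and with length and GC offsets it was 0.25.

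Lhx6 (ENSMUSG00000026890, chromosome 2, 36081953 to 36105408) encodes the LIM homeodomain factor that specifies these cells and stays on in the adult. It had 609, 568 and 570 normalized counts in controls and 505, 516 and 607 in p300-ifKO libraries. Replicates 1 and 2 of the p300-ifKO group lay below all controls and replicate 3 was next to the highest control. The log2 fold change was −0.10 (SE 0.14, 95% interval −0.38 to 0.18, adjusted p 0.991 in DESeq2), and it moved to −0.055 without p300-ifKO replicate 1, −0.064 without replicate 2 and −0.19 without replicate 3. Per kilobase, Lhx6 was between 0.0806 and 0.0990 of Gad1 in the 6 libraries, whereas Pvalb was 0.440 to 0.579 of Gad1 in controls and 1.16, 0.489 and 0.658 in p300-ifKO libraries.

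**Figure D1:**
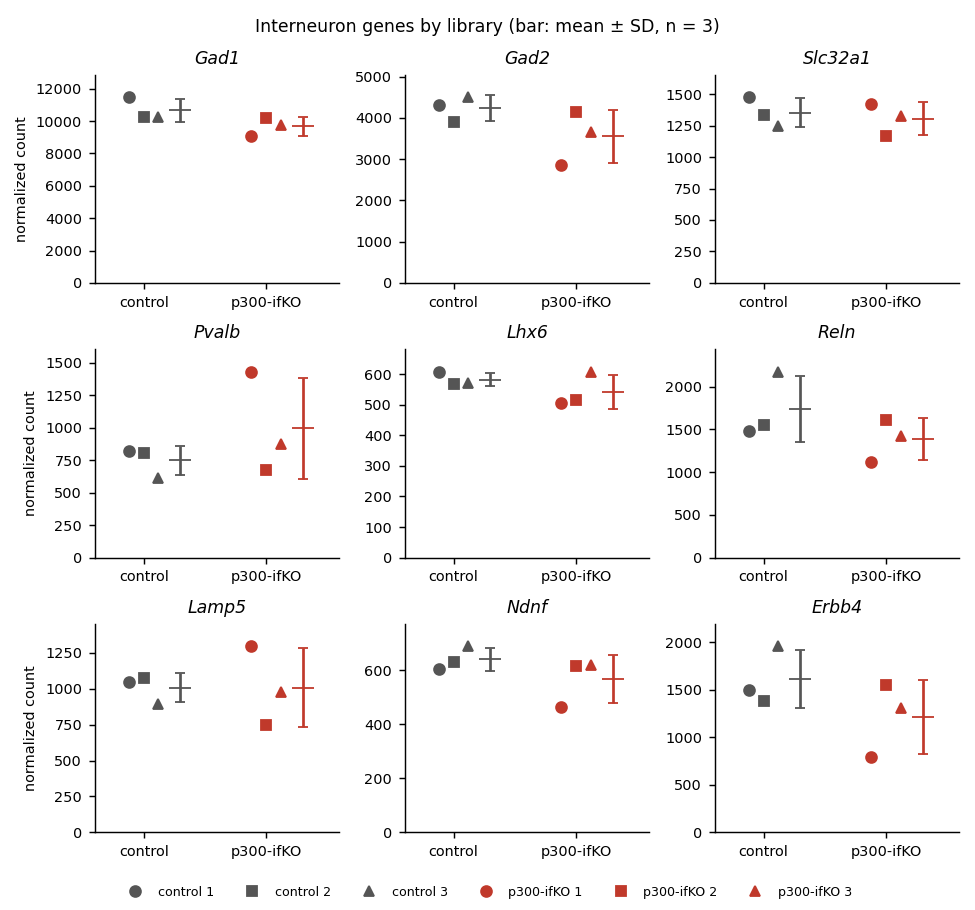
Normalized counts of the 9 interneuron genes (y axis of each panel, from 0) in 3 control and 3 p300-ifKO libraries, with 1 symbol per library and the mean ± SD (n = 3) beside them. Gad1 is the only panel in which the groups do not overlap, and p300-ifKO replicate 1 (red circle) is the highest library of Pvalb (1433) and the lowest of Erbb4 (790).

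The markers of neurogliaform and related cells were then read. Reln (ENSMUSG00000042453, chromosome 5, 21884454 to 22344702) encodes reelin, a secreted glycoprotein that Cajal-Retzius cells make in development and interneurons in the adult. It had 1477, 1552 and 2178 normalized counts in controls and 1123, 1611 and 1419 in p300-ifKO libraries. Control replicate 3 stood above the other five and p300-ifKO replicate 2 lay within the control range. The log2 fold change was −0.33 (SE 0.21, 95% interval −0.73 to 0.08, adjusted p 0.991 in DESeq2), and without control replicate 3 it was −0.13, and it was −0.20 without p300-ifKO replicate 1 and −0.10 with length and GC offsets.

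Lamp5 (ENSMUSG00000027270, chromosome 2, 136052239 to 136069917) encodes a membrane protein of the LAMP family found in GABAergic terminals. It had 1051, 1079 and 895 normalized counts in controls and 1296, 751 and 975 in p300-ifKO libraries. Replicates 1 and 2 of the p300-ifKO group were the highest and the lowest of the 6, and the means were nearly equal, at 1008 ± 99.2 and 1007 ± 274 (SD, n = 3 each). The log2 fold change was −0.0019 (SE 0.21, 95% interval −0.42 to 0.42, adjusted p 0.998 in DESeq2), and it lay between −0.23 and 0.17 as each library was left out. With 1 surrogate variable it was −0.32 (DESeq2 unadjusted p 0.00163, adjusted p 0.999962).

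Ndnf (ENSMUSG00000049001, chromosome 6, 65671590 to 65712326) encodes a secreted factor that marks neurogliaform cells of the outer layers. It had 604, 629 and 688 normalized counts in controls and 464, 615 and 619 in p300-ifKO libraries. Replicate 1 of the p300-ifKO group was again the lowest, and replicates 2 and 3 lay within the control range. The log2 fold change was −0.18 (SE 0.17, 95% interval −0.50 to 0.15, adjusted p 0.991 in DESeq2), −0.054 without p300-ifKO replicate 1, and it turned to 0.021 with length and GC offsets.

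Erbb4 (ENSMUSG00000062209, chromosome 1, 68032186 to 69108059) encodes the neuregulin receptor through which excitatory inputs onto interneurons are tuned. It had 1499, 1386 and 1958 normalized counts in controls and 790, 1553 and 1307 in p300-ifKO libraries. Replicates 1 and 3 of the p300-ifKO group lay below all controls, replicate 1 at 48.96% of the control mean, and replicate 2 lay within the control range. Group means were 1614 ± 303 for controls and 1217 ± 389 for p300-ifKO (SD, n = 3 each), and the log2 difference was −0.41 (SE 0.25, 95% interval −0.91 to 0.09, adjusted p 0.991 in DESeq2 and 0.745 in edgeR). Leaving out p300-ifKO replicate 1 moved Erbb4 to −0.18, leaving out replicate 2 to −0.62 (DESeq2 adjusted p 0.0527) and leaving out control replicate 3 to −0.24, and it was −0.20 with length and GC offsets.

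Read together, 8 of the 9 genes had a lower mean and 1 a higher mean in p300-ifKO (6 to 9 lower over the alternatives), with a median log2 fold change of −0.14, beside −0.0043 over genes with a mean of at least 50. None of the 9 had an unadjusted p under 0.05 in DESeq2, against 1.32% of all genes tested in either direction and 0.546% that were lower, and none had one in edgeR, against 2.3%. The 95% interval held 0 for 9 of 9 genes. With all 6 libraries and no covariate, it excluded a change of 1 on the log2 scale in either direction for 9 of 9. It excluded a change of 0.5 for 4 of 9, which were Gad1, Slc32a1, Lhx6 and Lamp5. Smaller changes were not excluded at this number of mice. Not every alternative excluded a change of 1. Without p300-ifKO replicate 2, the intervals of Erbb4 (−0.62, SE 0.22) and Pvalb (0.63, SE 0.22) reached past it, in opposite directions. The intervals of both genes also did so when p300-ifKO replicate 3, control replicate 1 or control replicate 2 alone was left out. A model with 1 surrogate variable brought Gad2 (−0.077), Reln (−0.075), Erbb4 (−0.063) and Ndnf (−0.027) nearer to 0 and took Slc32a1 (−0.17) and Lamp5 farther from it. Without p300-ifKO replicate 2, 4 of the 9 (Gad2, Pvalb, Reln and Erbb4) had an unadjusted p under 0.05 in DESeq2, against 12.8% of all genes, and 0 of 9 passed the adjusted threshold, against 2.89%. The 2.89% is of all genes with a p-value in that fit. Independent filtering left some of them, such as Arsi, without an adjusted p, so it understates the share among genes that could pass.

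**Figure D2:**
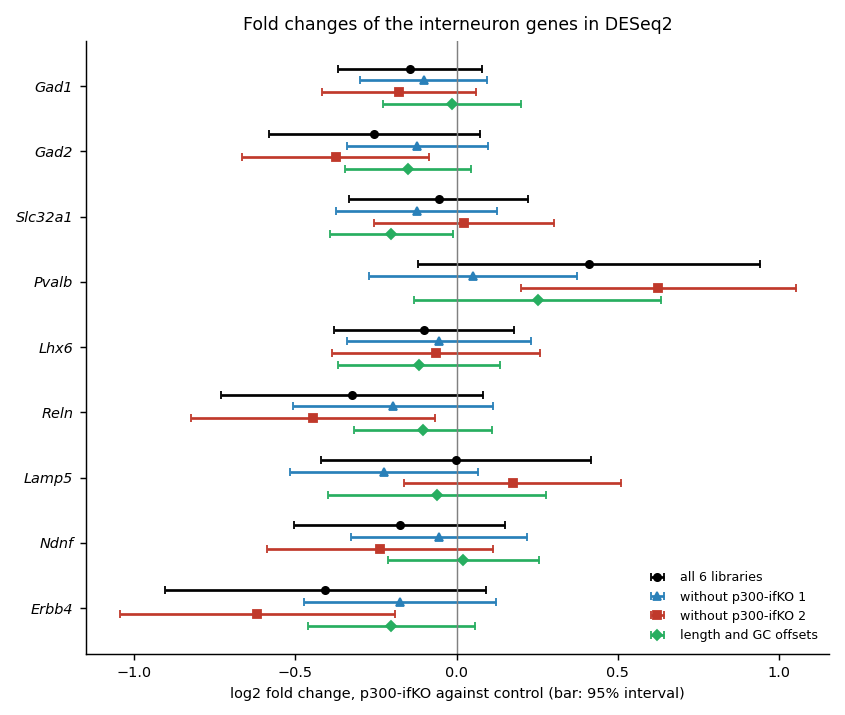
Log2 fold change of each interneuron gene in DESeq2 (x axis, p300-ifKO against control) with its 95% interval, for all 6 libraries, without p300-ifKO replicate 1 or 2, and with length and GC offsets. With all 6 libraries each interval holds 0, and Pvalb moves between 0.051 and 0.63 and Erbb4 between −0.62 and −0.18 as replicate 1 or 2 is left out.

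The members lay on both sides of the control mean in p300-ifKO replicates 1 and 3, and all 9 lay below it in replicate 2. In p300-ifKO replicate 1 they ran from 191% of the control mean for Pvalb, 129% for Lamp5 and 105% for Slc32a1 down to 67.4% for Gad2, 64.7% for Reln and 48.96% for Erbb4. In p300-ifKO replicate 2 the 9 genes lay between 74.5% (Lamp5) and 97.6% (Gad2), and in replicate 3 between 80.9% (Erbb4) and 117% (Pvalb). The summed counts of the 9 genes, most of them from Gad1 and Gad2, were 23339, 21525 and 22941 in controls and 18967, 21206 and 20525 in p300-ifKO libraries, where all 3 sums were below the lowest control sum. As a share of the summed counts of 8 markers of excitatory forebrain neurons, they were 16.1%, 13.4% and 16.4% in controls and 13.8%, 12.8% and 14.1% in p300-ifKO libraries, which overlapped. Most of the counts of those 8 markers came from Camk2a.

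The order of the fold changes followed the exonic length of the genes. Pvalb has the shortest exonic length of the 9, 1041 bases, and Slc32a1 and Lamp5 follow with 2797 and 2933, whereas Ndnf (10114), Erbb4 (12355) and Reln (23738) are the longest. Over the 9 genes, Spearman's rho of the log2 fold change with exonic length was −0.917, beside −0.440 over the 17070 genes with a mean above 10. The genes share the same 6 libraries, so rho is given as a description. In single libraries, the rho of the 9 deviations with length was −0.0833, 0.533 and 0.883 in controls and −0.917, 0.817 and −0.633 in p300-ifKO. With length and GC offsets the rho of the fold changes was −0.100, without p300-ifKO replicate 1 it was −0.300, without replicate 2 it stayed at −0.917, and with 1 surrogate variable it was 0.367.

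**Figure D3:**
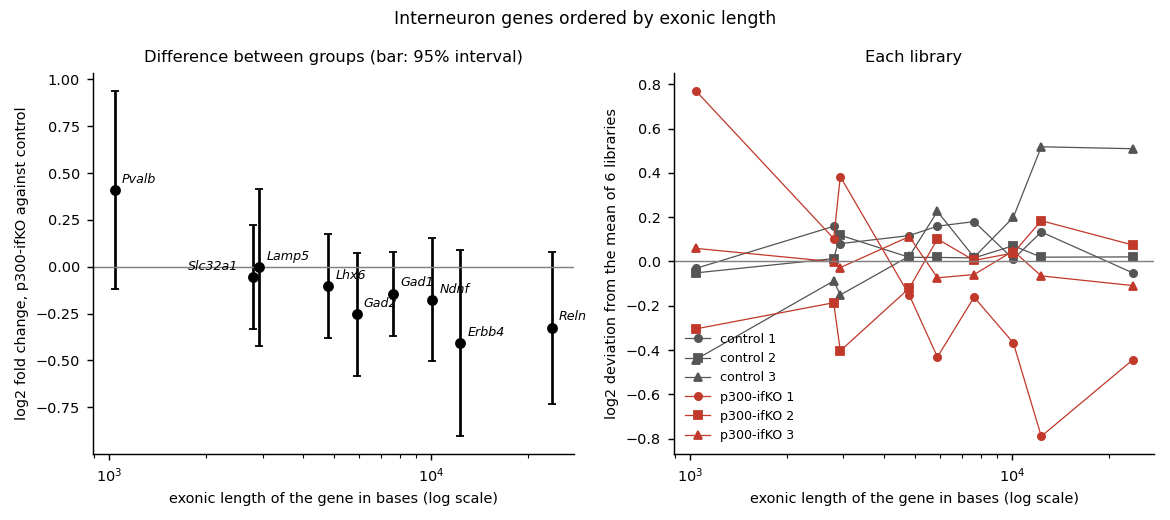
Left, log2 fold change of the 9 genes with its 95% interval against exonic length on a log axis. Right, log2 deviation of each library from the mean of 6 libraries along the same axis, where p300-ifKO replicate 1 runs from 0.77 at Pvalb to −0.79 at Erbb4.

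Levels were compared between genes per kilobase of exonic length. Gad1 was highest at 1332 normalized counts per kilobase (mean of 6 libraries, range 1188 to 1505), followed by Pvalb at 837 (592 to 1376), Gad2 at 663 (486 to 767), Slc32a1 at 475 (416 to 529) and Lamp5 at 344 (256 to 442). A step separated these from Lhx6 at 117 (105 to 127), Erbb4 at 115 (64.0 to 159), Reln at 65.7 (47.3 to 91.7) and Ndnf at 59.6 (45.9 to 68.0). Lamp5 and Lhx6 were the only neighbours in this order whose ranges did not overlap, and Lamp5 was 2.94 times Lhx6. Of the neighbours that overlapped, Slc32a1 was above Lamp5 and Erbb4 above Reln in 6 of 6 libraries, and Pvalb was above Gad2 and Lhx6 above Erbb4 in 4 of 6. The order within each group was not the same. By the control means Gad2 (721) was above Pvalb (719) and Erbb4 (131) above Lhx6 (121), whereas by the p300-ifKO means Pvalb (956) was above Gad2 (605) and Lhx6 (113) above Erbb4 (98.5). Of all genes with a count, 97.8% lay below Gad1 and 68.0% below Ndnf. By the length of the longest transcript, a choice made after seeing the data, 5 of the 9 kept their rank, Lamp5 moved above Slc32a1 and Reln above Erbb4.

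**Figure D4:**
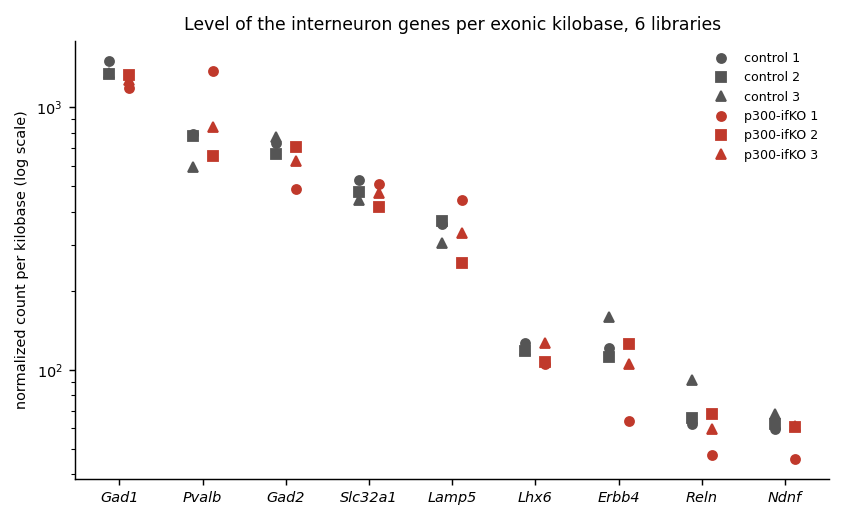
Normalized counts per kilobase of exonic length (y axis, log scale) of the 9 genes in order of their mean, with 1 symbol per library. The 5 genes from Gad1 to Lamp5 have ranges between 256 and 1505, and the 4 from Lhx6 to Ndnf between 45.9 and 159.

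Genes with the most similar course over the 6 libraries were looked up among the 13613 genes with a mean of at least 50, by the root mean square difference of centred log2 values. The nearest were Ntng2 to Gad1 (0.0201), Dact1 to Gad2 (0.0203), Asic4 to Slc32a1 (0.0267), Pgls to Pvalb (0.0217), Gm43379 to Lhx6 (0.0359), Steap2 to Reln (0.0292), Dhrs7b to Lamp5 (0.0354), Zfp9 to Ndnf (0.0268) and Qser1 to Erbb4 (0.0450). No member was the nearest gene of another. The closest member ranked between 331 (Gad1 to Lhx6) and 2387 (Lhx6 to Slc32a1) among all genes.

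Related genes were taken from lists of the GABA, interneuron, neuregulin and reelin systems, which hold 55 genes in all. Of these, 13 were higher and 42 lower in p300-ifKO (median −0.11), and 0 of 55 passed in DESeq2, against 0.0061% of all genes. At an unadjusted p under 0.05 there were 2 of 55, Abat and Tacr1, against 1.32%. Without p300-ifKO replicate 2, 5 of 55 passed (Abat, Npy, Cck, Nos1 and Kcnc2), against 2.89% of all genes. As above, that share includes genes that had no adjusted p in this fit and so could not pass. Groups did not overlap with p300-ifKO lower for 6 of 55 (3.42% of all genes) and with p300-ifKO higher for 0 of 55 (3.21%). Over these 55 genes too, fold change and exonic length went in opposite directions, with rho −0.645, and −0.061 with length and GC offsets over the 54 genes that entered that fit. This correlation was −0.185 without p300-ifKO replicate 1 and −0.751 without replicate 2, and the median of the 55 was −0.057 and −0.19.

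The 6 genes that take up, supply or break down GABA were all lower (median −0.24; 5 of 6 with length and GC offsets or 1 surrogate variable), and 0 of 6 passed. The median was −0.094 without p300-ifKO replicate 1 and −0.088 with 1 surrogate variable. GABA transaminase, Abat, which degrades GABA, stood at −0.28 (SE 0.14; DESeq2 unadjusted p 0.0466, adjusted p 0.991), with 3 of 3 p300-ifKO libraries below all controls, and was −0.38 (DESeq2 adjusted p 0.0413) without p300-ifKO replicate 2. Slc6a13, a GABA transporter of the meninges, was −0.46 (SE 0.36) and turned to 0.063 without control replicate 3. Aldh5a1, which completes the breakdown, was −0.099 (SE 0.11). Astrocytes also make several of these proteins. The summed counts of 7 astrocyte markers were lower in p300-ifKO (94549 to 106031) than in control (107357 to 111052) with no overlap. Most of that sum came from Slc1a2, whose own groups overlapped, and of the 7 markers 2 were higher and 5 lower. The part of astrocytes in these values was not tested.

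Of 14 transcription factors of interneuron lineages, 4 were higher and 10 lower (median −0.085, and −0.037 without p300-ifKO replicate 1, −0.021 without replicate 2). Nr2f2, a factor of cells from the caudal ganglionic eminence, was lowest at −0.32 (SE 0.20) and Npas1 highest at 0.20 (SE 0.18), and Dlx1, the most abundant per kilobase, was −0.072 (SE 0.13). The 8 peptide precursors were split, 4 higher and 4 lower (median 0.050, which turned to −0.16 without p300-ifKO replicate 1 and −0.19 with 1 surrogate variable). Cck, the cholecystokinin precursor, which excitatory neurons also express, had 5088, 5034 and 4225 normalized counts in controls and 8810, 4183 and 5699 in p300-ifKO libraries. On the log2 scale it stood at 0.38 (SE 0.25), at 0.60 (DESeq2 adjusted p 0.0297) once p300-ifKO replicate 2 was left out and at 0.046 once replicate 1 was. Sst, the somatostatin precursor and a marker of the other large class from the medial ganglionic eminence, had 6309, 4967 and 4821 in controls and 7697, 4270 and 5295 in p300-ifKO libraries, and its log2 difference of 0.10 (SE 0.23) turned to −0.17 without p300-ifKO replicate 1. Cort, a relative of Sst, was −0.17 (SE 0.32). In Cck and Sst, as in Pvalb, p300-ifKO replicate 1 was the highest library and replicate 2 was lower than replicate 3. The exonic lengths of Cck, Sst and Pvalb are short (1305, 721 and 1041 bases). This course was not particular to interneuron genes, as Emx1, Aif1 and C1qa, markers of other cell types, had it too.

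Of 14 other class markers, 3 were higher and 11 lower (median −0.22, and −0.090 without p300-ifKO replicate 1, −0.088 with 1 surrogate variable). Tacr1, the receptor of substance P, had 74.6, 44.1 and 66.3 normalized counts in controls and 21.5, 41.5 and 34.7 in p300-ifKO libraries. Its groups did not overlap, and it stood at −0.91 on the log2 scale (SE 0.37; DESeq2 unadjusted p 0.0139, adjusted p 0.991) with as few as 20 reads in a library. Cnr1, the cannabinoid receptor of cholecystokinin cells, was −0.29 (SE 0.21; −0.084 without p300-ifKO replicate 1 and −0.48 without replicate 2), with 6528 ± 82.5 (SD, n = 3) normalized counts in controls and 3655, 6673 and 5656 in p300-ifKO libraries, and Cxcl14 was 0.19 (SE 0.20).

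Around Erbb4, 7 neuregulins and other ErbB receptors gave 1 higher and 6 lower (median −0.11) and 0 of 7 past the threshold. The ligand Nrg1 was −0.50 (SE 0.28, unadjusted p 0.0704 in DESeq2), the more abundant ligand Nrg3 −0.11 (SE 0.14) and the co-receptor Erbb2 0.044 (SE 0.26). Around Reln, 6 receptors and transducers gave 1 higher and 5 lower (median −0.12) and 0 of 6 past the threshold. The adaptor Dab1, which reelin receptors signal through, was −0.18 (SE 0.15), the kinase Fyn was 0.030 (SE 0.11) and the adaptor Crk −0.080 (SE 0.17). Medians of both lists changed sign with 1 setting or more: the neuregulin list was 0.056 with 1 surrogate variable, and the reelin list 0.0077 with length and GC offsets, 0.016 with 1 surrogate variable and 0.0028 without p300-ifKO replicate 1.

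**Figure D5:**
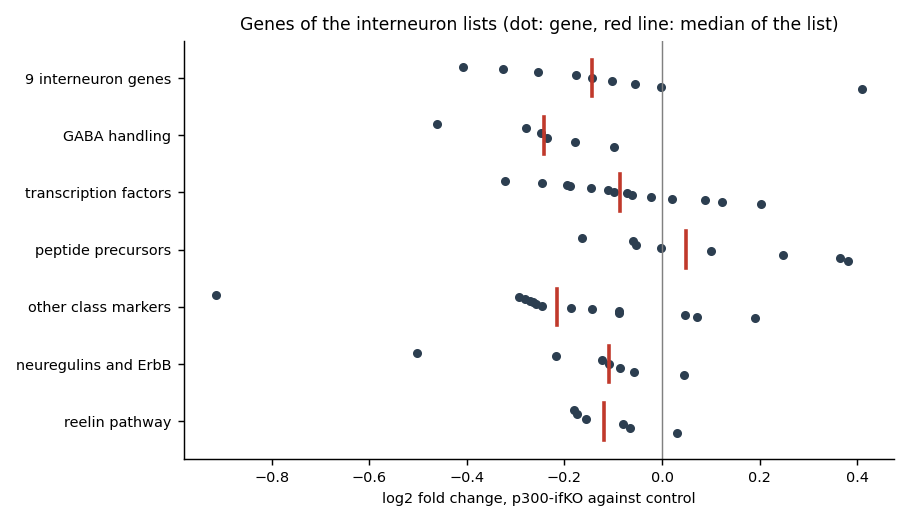
Log2 fold change (x axis, p300-ifKO against control) of each gene in the 9 interneuron genes and 6 related lists, with 1 dot per gene and a red line at the median. The medians lie between −0.24 for GABA handling and 0.050 for peptide precursors, which turned to −0.16 without p300-ifKO replicate 1, and the lowest dot is Tacr1 at −0.91.

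Markers of cells that share these genes were read as summed counts of each list. Of 5 markers of Cajal-Retzius cells, which also make Reln, 0 passed, and the sums were 178 to 243 in controls and 185 to 211 in p300-ifKO libraries. Of 7 markers of striatal GABAergic projection neurons, which also make Gad1, Gad2 and Slc32a1, 3 were higher and 4 lower, the sums were 1518 to 1639 and 1426 to 2135, and Six3 was at 0 in a library. Of 6 thalamic markers, 1 was higher and 5 lower, with sums of 3154 to 3492 and 2954 to 3240. The 8 excitatory markers gave 139656 to 160668 and 137720 to 165331. Of 7 microglial markers, 5 were higher and 2 lower (Cx3cr1 and P2ry12). Their sums were 7850 to 8571 in controls and 8699 to 9778 in p300-ifKO, higher with no overlap. Sums of oligodendrocyte, endothelial and choroid plexus markers overlapped between groups. The part of these cells in the values of the 9 genes was not tested.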

How the data were processed

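RNA-seq of whole hippocampus gave 1 library for each of 6 mice, 3 control and 3 p300-ifKO, with groups taken from the titles. What was deposited is raw counts per gene, which the authors made from single-end reads of 50 bases. They trimmed adapters with Trim Galore 0.6.4, aligned to GRCm38 with STAR 2.6.1, dropped reads of low mapping quality and counted the rest on exons of Ensembl genes with Rsubread. That filter removes reads that match several places, and a strand setting is not given in the sources used here. Of every 50-base stretch of the 9 genes, the share found in another gene was 23.65% for Slc32a1 and at most 1.59% for the other eight. For Slc32a1 the only such gene was the antisense gene Gm14205, whose exons overlap it. Those stretches are thus shared at the same locus, which bears on gene assignment and not on that filter. The table also gives an exonic length per gene, which was used for levels per kilobase. Of 55471 genes, 55230 matched GENCODE M21 by identifier, and the number of per-sample columns left unused was 0.

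DESeq2 1.42.0 in R 4.3.3 was fitted to all genes without a covariate (two-sided Wald test, Benjamini-Hochberg adjustment over 32773 genes, threshold 0.05), since the methods of the study name that test. The edgeR 4.0.16 quasi-likelihood test was run beside it. Alternatives were limma-voom (limma 3.58.1), DESeq2 with TMM factors, at least 10 counts in 3 libraries, edgeR with no filter, Cook or independent filtering off, a replicate block, 1 surrogate variable (sva 3.50.0), smooth offsets for length and GC content per library (mgcv 1.9.3, mean above 10), a threshold of 0.1 and leaving out each library. The surrogate variable was 0.18, 0.11 and 1.11 in control replicates 1, 2 and 3 and −1.77, 0.69 and −0.32 in the p300-ifKO replicates. It was thus partly aligned with genotype, and adjusting for it can also remove part of a difference between groups. Intervals are 95% Wald intervals of the fit. With 3 mice per group, p-values cover the spread between these libraries. The DESeq2, edgeR, limma-voom and offset fits were tested on simulated data with known changes. The simulated libraries carried no trend with length or GC content, so that test does not cover such trends.

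The 9 genes and the lists were chosen with earlier results of these data known. In each list that concerns interneurons, the genes named were those with an unadjusted p under 0.05, the lowest and highest fold change at a mean of at least 50, and the highest level per kilobase. A gene that this rule names is not reported here. For each of the 9 genes the gene with the most similar course was named, by log2(normalized count + 1). Further genes were picked with their values in view. Promoter windows came from RefSeq on GRCm38.p6, and Ndnf had no entry.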

Additional observations from a re-analysis of the deposited data

How the results depend on the processing

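Under every alternative run, 0 of the 9 interneuron genes passed the threshold, also at 0.1 over all 6 libraries, and adjusted p-values lay between 0.05005 (Pvalb without p300-ifKO replicate 2) and 0.999985. Between 6 and 9 of the 9 were lower (6 to 8 with a library left out), and their median lay between −0.19 and −0.077 (−0.19 to −0.087 with a library left out). The number of genes past the threshold over the whole table was 4 with the replicate block and 2 to 926 with a library left out, the highest without p300-ifKO replicate 2. Whether replicate numbers pair the mice is not given in the sources used here. Deviations of same-numbered libraries correlated at 0.27, −0.28 and 0.13 over 17071 genes. With 3 libraries per group, whose counts also followed exonic length to differing extents, these values cannot settle it. With the replicate block, 1 of the 9 genes, Erbb4, had an unadjusted p under 0.05 in DESeq2 and 0 passed.

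Directions changed for these genes. With 1 surrogate variable, the log2 fold change was −0.057 for Pvalb, −0.24 for Sst, −0.062 for Cck, −0.086 for Cxcl14, −0.013 for Fyn, 0.075 for Crk, −0.059 for Pgls, −0.27 for Dhrs7b and 0.025 for Qser1. With length and GC offsets it was 0.021 for Ndnf, −0.081 for Sst and 0.12 for Gm43379. Lamp5 was 0.0061 in edgeR, 0.010 with TMM factors and 0.010 in edgeR with no filter. With a library left out, ranges crossed 0 for Slc32a1 (−0.12 to 0.023), Lamp5 (−0.23 to 0.17), Slc6a13 (−0.71 to 0.063), Sst (−0.17 to 0.28), Cort (−0.49 to 0.10), Cxcl14 (−0.035 to 0.34), Erbb2 (−0.076 to 0.13), Fyn (−0.0059 to 0.069), Crk (−0.20 to 0.059), Asic4 (−0.12 to 0.0076) and Dhrs7b (−0.19 to 0.20). The causes were not tested. With 3 mice per group, the 95% interval of the fit with all 6 libraries and no covariate excluded a change of 0.5 on the log2 scale for 4 of the 9 genes. Fits with a library left out did not all exclude it for those 4.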
